A study of Mus musculus with 19 samples.

Results

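The 1370 genes described here are the mouse protein-coding genes with 2 or more well separated promoters, 6.52% of the 21000 protein-coding genes of the RefSeq curated set on mm10. The rule uses the annotation alone and no peak. Start sites of a gene that lay within 5 kb of each other were merged to 1 promoter, and a gene was a member when 2 or more promoters remained. This gave 3064 promoters, 1370 first (most upstream) and 1694 later ones, of 22694 promoters in all. Of the member genes, 1115 had 2 promoters, 197 had 3, 50 had 4, 5 had 5 and 3 had 6. The binding data were 2 replicates of SOX3 ChIP-seq from whole mouse testis at postnatal day 7 (P7), each deposited as its own peak list. The labels give the same pair of SOX3 antibodies (SCBT sc-101155 and EMD Millipore AB5772) for both replicates and no strain or genotype, and the study's methods describe seminiferous tubules pooled from several mice. A promoter was counted as having a peak when a peak of that list came within 2 kb of a start site, and the study's question for these libraries was where SOX3 sits in the genome of juvenile germ cells. The lists hold no read counts. The study's supplement gives read totals, with more reads, total and unique, for replicate 2, whose peak list is the shorter. The testis holds many cell types, so binding in few cells and weak binding in many cells cannot be told apart. A peak list holds no expression, so the tissue label could not be checked against marker genes.

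Many genes start transcription at more than 1 place. An alternative promoter can give the same protein under the control of another tissue or stage, or a protein with another amino terminus. Promoters fall into broad kinds by base composition. CpG islands are stretches that kept their CpG dinucleotides because they are unmethylated in the germ line, and they mark most promoters of broadly expressed genes. CpG-poor promoters are more often those of genes used in few tissues. The measure of this is the CpG ratio, the number of CpG dinucleotides observed over the number expected from the C and G content, taken here over 500 bases on either side of the start site that most transcripts of the promoter use. Promoters with a ratio above 0.75 are called CpG-rich, those below 0.48 CpG-poor and the rest intermediate. SOX3 is an HMG-box transcription factor of the SOXB1 group, with roles in the nervous system, the pituitary and spermatogonia.

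The sequences that carry the comparison are those just before the start sites of genes whose promoters differed. They are the 250 bases before the main start site, read 5′ to 3′ on the strand of the gene, from the GRCm38 (mm10) genome with RefSeq start sites. Capitals mark CpG dinucleotides. Kansl1l and Phf21a had a peak at the first promoter only in both replicates, Ywhaz and Hnrnpf at later promoters only, and Runx1 and Dnmt3a are textbook genes with alternative promoters.
Kansl1l first promoter, chr1:66817596-66817845, minus strand: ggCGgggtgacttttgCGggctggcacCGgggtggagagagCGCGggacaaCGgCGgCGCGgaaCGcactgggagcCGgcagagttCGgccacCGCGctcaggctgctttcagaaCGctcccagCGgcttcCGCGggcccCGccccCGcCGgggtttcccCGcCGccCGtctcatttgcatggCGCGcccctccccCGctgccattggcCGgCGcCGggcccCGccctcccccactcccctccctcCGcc
Kansl1l later promoter, chr1:66808795-66809044, minus strand: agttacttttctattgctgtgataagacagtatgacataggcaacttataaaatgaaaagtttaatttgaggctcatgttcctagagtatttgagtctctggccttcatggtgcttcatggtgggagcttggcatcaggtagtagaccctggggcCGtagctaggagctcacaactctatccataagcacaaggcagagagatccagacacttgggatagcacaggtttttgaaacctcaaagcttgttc
Phf21a first promoter, chr2:92183932-92184181, plus strand: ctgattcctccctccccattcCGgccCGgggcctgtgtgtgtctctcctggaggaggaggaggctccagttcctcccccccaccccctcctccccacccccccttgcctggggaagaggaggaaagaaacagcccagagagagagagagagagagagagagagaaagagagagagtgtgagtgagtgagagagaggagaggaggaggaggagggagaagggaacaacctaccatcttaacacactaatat
Phf21a later promoter, chr2:92221222-92221471, plus strand: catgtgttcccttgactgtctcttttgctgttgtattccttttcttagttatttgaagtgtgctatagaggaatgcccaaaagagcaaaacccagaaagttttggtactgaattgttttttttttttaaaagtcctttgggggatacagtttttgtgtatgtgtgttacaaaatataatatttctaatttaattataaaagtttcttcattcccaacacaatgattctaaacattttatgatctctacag
Ywhaz first promoter, chr15:36802985-36803234, minus strand: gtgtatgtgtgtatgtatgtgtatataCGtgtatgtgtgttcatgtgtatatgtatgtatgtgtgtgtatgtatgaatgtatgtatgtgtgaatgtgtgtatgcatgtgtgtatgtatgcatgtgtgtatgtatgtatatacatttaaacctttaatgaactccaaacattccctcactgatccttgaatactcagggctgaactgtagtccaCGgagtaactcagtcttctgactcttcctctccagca
Ywhaz later promoter, chr15:36794539-36794788, minus strand: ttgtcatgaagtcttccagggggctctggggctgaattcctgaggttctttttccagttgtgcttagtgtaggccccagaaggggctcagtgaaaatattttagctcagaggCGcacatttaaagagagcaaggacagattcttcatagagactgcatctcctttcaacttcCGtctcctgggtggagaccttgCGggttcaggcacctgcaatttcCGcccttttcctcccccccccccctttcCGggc
Hnrnpf first promoter, chr6:117900090-117900339, plus strand: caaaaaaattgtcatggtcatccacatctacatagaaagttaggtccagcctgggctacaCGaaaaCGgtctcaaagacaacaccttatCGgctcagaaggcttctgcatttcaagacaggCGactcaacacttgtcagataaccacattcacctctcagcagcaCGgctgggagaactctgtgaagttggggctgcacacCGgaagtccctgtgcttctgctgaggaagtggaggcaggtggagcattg
Hnrnpf second promoter, chr6:117906532-117906781, plus strand: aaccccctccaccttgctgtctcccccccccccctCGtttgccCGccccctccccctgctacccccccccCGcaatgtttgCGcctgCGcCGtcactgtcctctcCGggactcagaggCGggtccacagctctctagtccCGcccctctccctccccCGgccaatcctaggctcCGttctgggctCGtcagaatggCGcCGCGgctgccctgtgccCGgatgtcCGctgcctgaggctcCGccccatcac
Hnrnpf, the third promoter, chr6:117917044-117917293, plus strand: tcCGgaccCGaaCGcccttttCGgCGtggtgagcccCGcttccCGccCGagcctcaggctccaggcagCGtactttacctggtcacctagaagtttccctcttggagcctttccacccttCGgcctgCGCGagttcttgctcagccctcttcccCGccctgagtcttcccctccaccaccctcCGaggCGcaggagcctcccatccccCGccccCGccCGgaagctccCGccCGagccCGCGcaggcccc
Runx1 first promoter, chr16:92826075-92826324, minus strand: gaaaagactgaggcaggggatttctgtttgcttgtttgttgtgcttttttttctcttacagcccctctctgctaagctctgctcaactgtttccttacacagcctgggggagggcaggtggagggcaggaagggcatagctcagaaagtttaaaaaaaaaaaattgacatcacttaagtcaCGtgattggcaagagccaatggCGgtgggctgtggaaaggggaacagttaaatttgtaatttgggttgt
Runx1 later promoter, chr16:92697330-92697579, minus strand: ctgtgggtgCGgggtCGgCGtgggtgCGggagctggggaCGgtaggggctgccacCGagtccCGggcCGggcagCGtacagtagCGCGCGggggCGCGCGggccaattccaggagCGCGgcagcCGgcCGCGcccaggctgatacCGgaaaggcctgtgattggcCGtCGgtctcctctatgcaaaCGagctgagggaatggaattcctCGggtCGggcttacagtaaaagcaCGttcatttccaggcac
Dnmt3a first promoter, chr12:3806730-3806979, plus strand: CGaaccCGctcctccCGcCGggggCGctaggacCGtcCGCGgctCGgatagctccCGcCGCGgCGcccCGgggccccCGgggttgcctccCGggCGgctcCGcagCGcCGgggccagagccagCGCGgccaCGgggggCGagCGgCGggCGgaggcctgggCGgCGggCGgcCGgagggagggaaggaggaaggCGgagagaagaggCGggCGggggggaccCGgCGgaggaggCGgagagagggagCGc
Dnmt3a later promoter, chr12:3891494-3891743, plus strand: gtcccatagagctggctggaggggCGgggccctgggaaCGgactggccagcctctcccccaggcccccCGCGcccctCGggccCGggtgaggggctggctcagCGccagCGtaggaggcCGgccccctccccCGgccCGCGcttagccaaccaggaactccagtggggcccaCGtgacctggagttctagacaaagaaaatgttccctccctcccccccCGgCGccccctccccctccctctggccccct

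In each gene where the peaks of both replicates covered only some of these windows, the covered windows held more CpG dinucleotides than the others. The covered windows of Phf21a and Ywhaz still held few. The 250 bases before the first start site of Kansl1l held 32 CpG dinucleotides, and those before the later site held 1. Both replicate peaks covered all 250 bases of the first window and none of the later one. For Hnrnpf, the windows held 6, 18 and 22 CpG dinucleotides in promoter order, and the peaks of both replicates covered the second and the third windows whole and did not reach the first. Runx1 had 2 before its first (distal) start site and 27 before its later (proximal) one. Replicate 2 had no peak within 2 kb of the distal site, and the weak replicate 1 peak there did not reach the printed bases. Dnmt3a had 38 and 15, and both windows lay whole under peaks in both replicates. The first promoter of Phf21a, in contrast, held only 2 CpG dinucleotides in a window with a GC content of 58.4%, and its later promoter held 0. The later promoter of Ywhaz held 5 and its first promoter 2. The first window of Phf21a and the later window of Ywhaz nevertheless lay whole under peaks of both replicates.

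First promoters had a SOX3 peak more often than later ones, in both replicates. Of the 1370 first promoters, 991 (72.3%) had a peak in replicate 1 and 836 (61.0%) in replicate 2. Of the 1694 later promoters, 829 (48.9%) had a peak in replicate 1 and 630 (37.2%) in replicate 2. The background over all 22694 promoters of protein-coding genes was 65.6% in replicate 1, 57.3% in replicate 2 and 55.0% with a peak in both. Against this background, first promoters lay above and later promoters below in each replicate. The difference (later minus first) was -23.4 percentage points in replicate 1 and -23.8 in replicate 2, a gap far wider than its spread between the replicates. The share fell further from the second to the third promoter, with 49.9% and 38.7% of the 1370 second promoters and 42.4% and 29.0% of the 255 at the third position. The 58 at the fourth position stood at 55.2% and 37.9%, which breaks the order, with few promoters behind it. The 19630 single-promoter genes had a peak at 66.6% and 58.8% of their promoters. Points midway between neighbouring promoters of the same gene, where these lay over 20 kb apart, had a peak within 2 kb at 15.3% and 8.73% of 939 places. These points come from 774 of the 1370 genes. In 2-promoter genes with promoters over 20 kb apart, 41.5 to 52.0% of later promoters had a peak in replicate 1, by distance group. In replicate 2 the range was 29.6 to 42.0%, so later promoters lay well above the midpoints there too. No test was run on these shares, since 2 replicates are too few for an exact test to reach significance, and all statements rest on the values in each replicate.

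**Figure D1:**
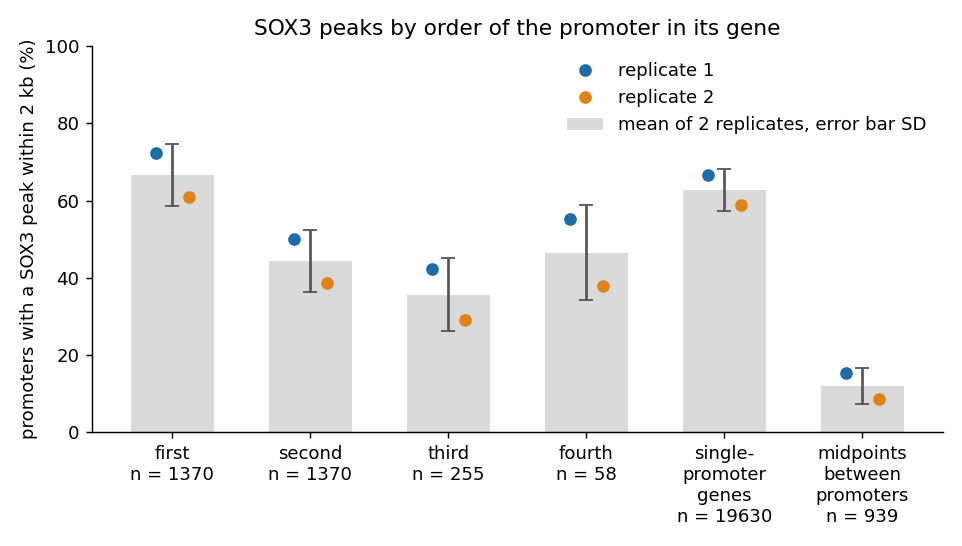
Share of promoters with a SOX3 ChIP-seq peak within 2 kb of a start site (y axis, percent) for the first to the fourth promoters of multi-promoter genes, for single-promoter genes and for points midway between neighbouring promoters over 20 kb apart (x axis). Bars are the mean of the 2 replicates with the SD and points are the replicates. First promoters stood at 72.3% and 61.0%, second promoters at 49.9% and 38.7%, and the midpoints at 15.3% and 8.73%.

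Read by gene, a peak at the first promoter alone was more frequent than a peak at later promoters alone. In replicate 1, 424 of 1370 genes (30.9%) had a peak at the first promoter only, 182 (13.3%) at later promoters only, 483 (35.3%) at every promoter, 84 (6.13%) at the first and some of the later ones, and 197 (14.4%) at none. In replicate 2 the numbers were 473 (34.5%), 224 (16.4%), 297 (21.7%), 66 (4.82%) and 310 (22.6%). The mean share was 32.7% ± 2.53 (SD, n = 2) for the first promoter only, 14.8% ± 2.17 for later promoters only and 28.5% ± 9.60 for all promoters. The first 2 of these shares held closely between the replicates, whereas the share with a peak everywhere was much lower in replicate 2, whose list is the shorter (38832 peaks against 58351). Counting only peaks found at a promoter in both replicates gave 490 genes for the first promoter only, 212 for later promoters only, 256 for all and 357 for none. A peak in both replicates can be 2 separate peaks within 2 kb. This was so at 14 of 801 first promoters (1.75%) and 40 of 554 later ones (7.22%), where no peaks of the replicates overlapped.

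Single genes often changed class between the replicates, but seldom from the first promoter only to later promoters only or the reverse. The same class was found in both replicates for 894 genes (65.3%), 314 of them with the first promoter only, 123 with later promoters only, 256 with all and 164 with none. Only 13 genes (0.949%) had the first promoter only in one replicate and later promoters only in the other. Of the 473 genes with the first promoter only in replicate 2, 314 (66.4%) had the same class in replicate 1 and 120 (25.4%) had a peak at all promoters there. Of the 476 genes whose class differed, 373 had a subset of their replicate 1 promoters with a peak in replicate 2, and 88 the reverse. Most changes of class were thus a peak found in the longer list and missing from the shorter one.

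**Figure D2:**
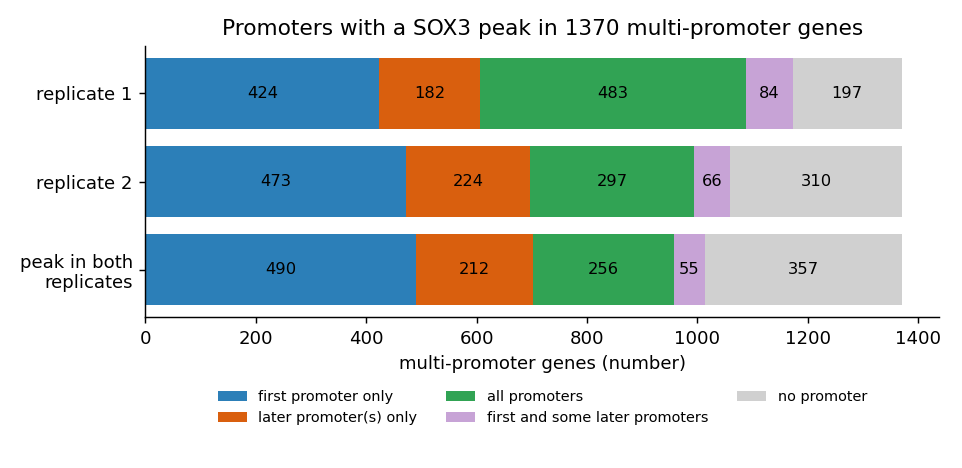
Number of multi-promoter genes (x axis) by which of their promoters had a SOX3 peak, in replicate 1, in replicate 2 and with only promoters that had a peak in both replicates. The first promoter only was found in 424, 473 and 490 genes and later promoters only in 182, 224 and 212.

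First and later promoters differed in base composition, and the difference in SOX3 peaks went with it. The median CpG ratio was 0.627 for first and 0.310 for later promoters, beside 0.594 for single-promoter genes. CpG-rich promoters made up 35.1% of first (481) and 10.9% of later promoters (184), and CpG-poor ones 36.5% (500) and 71.7% (1214). Over all promoters of the multi-promoter genes, 97.3% of the CpG-rich had a peak in replicate 1 and 91.3% in replicate 2, against 34.7% and 22.4% of the CpG-poor. The difference between rich and poor was 62.6 and 68.9 percentage points (mean 65.8 ± 4.41 (SD, n = 2)).

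Within a CpG class, first and later promoters differed by less than over all classes. Of CpG-rich promoters, 97.7% of first and 96.2% of later ones had a peak in replicate 1, and 92.5% and 88.0% in replicate 2. The intermediate class stood at 86.9% (first) and 81.4% (later) in replicate 1, and at 70.7% and 67.6% in replicate 2. In the CpG-poor class the shares were 36.6% and 33.9% in replicate 1 and 23.2% and 22.1% in replicate 2. In every class and replicate the first promoters were still slightly ahead. Weighting the later promoters to the mix of CpG classes of the first ones gave 69.2% and 58.2% with a peak, in place of 48.9% and 37.2%. The remaining difference (later minus first) was -3.09 and -2.87 percentage points, and with bins of 0.1 in the CpG ratio in place of the 3 classes -1.83 and -1.32. With the CpG ratio taken over 250 bases before to 50 after the start site it was wider, with a mean of -5.50 in place of -2.98.

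Single-promoter genes gave a similar course with a steeper rise. Their shares were 97.9% and 94.6% in the rich class, 90.4% and 78.9% in the intermediate class and 27.6% and 19.1% in the poor class. CpG-poor promoters of multi-promoter genes therefore had a peak more often than those of single-promoter genes. Much of this gap lay in the olfactory and vomeronasal receptor genes, sensory receptors of the nose that have mostly single, CpG-poor promoters. Without them the CpG-poor promoters of single-promoter genes had a peak at 33.5% and 23.1%, close to the values of first and later CpG-poor promoters.

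**Figure D3:**
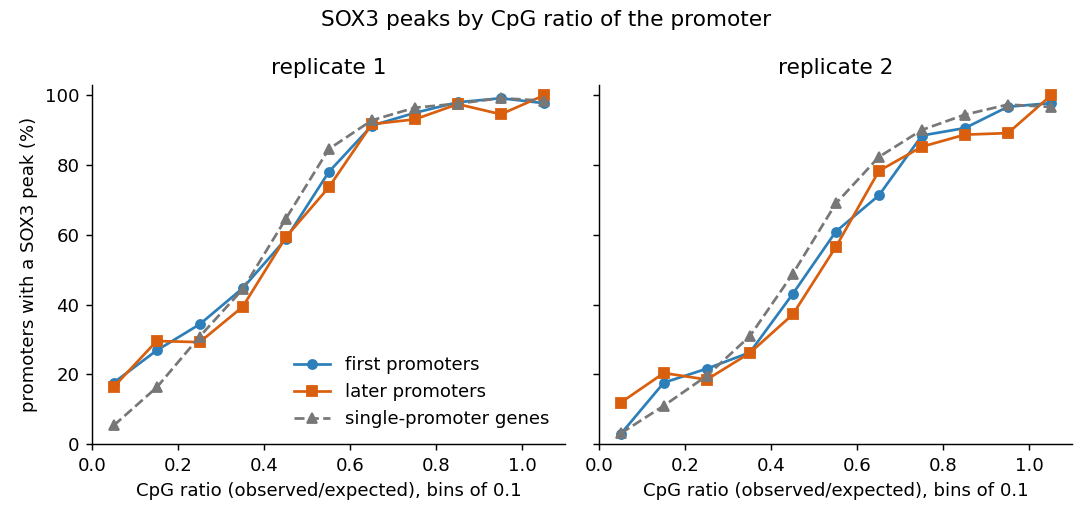
Share of promoters with a SOX3 peak (y axis, percent) by CpG ratio in bins of 0.1, plotted at the middle of the bin (x axis), for replicate 1 (left) and replicate 2 (right). Blue circles are first promoters, orange squares later promoters and grey triangles single-promoter genes, and the blue and orange lines run close to each other. In the bin from 0.2 the first promoters stood at 34.4% and 21.7%, and in the bin from 0.8 at 98.0% and 90.6%.

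In genes with exactly 2 promoters, the classes of both promoters can be set side by side. In the 301 genes with a CpG-rich first and a CpG-poor later promoter, 204 (67.8%) had a peak at the first only in replicate 1 and 221 (73.4%) in replicate 2, and 0 and 1 genes had it at the later promoter only. The mirror image held in the 71 genes with a CpG-poor first and a CpG-rich later promoter. There 44 (62.0%) and 47 (66.2%) had a peak at the later promoter only, and 0 and 1 genes at the first only. Order within the gene was thus reversed where base composition was. Where both promoters were CpG-rich, 27 and 25 of 28 genes had a peak at both. Where both were CpG-poor, 128 (48.7%) and 160 (60.8%) of 263 genes had no peak, and the first promoter only (50 and 39 genes) and the later promoter only (39 and 47) were about equally frequent.

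Among the 2-promoter genes with a peak at a single promoter, that promoter was nearly always the one with the higher CpG ratio. This held for 475 of 512 genes in replicate 1 (92.8%, exact binomial 95% interval 90.2 to 94.9) and for 527 of 581 in replicate 2 (90.7%, 88.0 to 92.9). The intervals cover counting error over genes only. Among all 1115 such genes, the first promoter had the higher ratio in 756 (67.8%). Genes with a peak at the first promoter only had the higher ratio there in 95.1% and 95.4%. For genes with a peak at the later promoter only, the later promoter had the higher ratio in 87.0% and 79.5%, although it had the higher ratio in under 1 in 3 of all 2-promoter genes. In the later-only genes the median ratio was 0.659 at the promoter with the peak and 0.262 at the other in replicate 1, and 0.639 and 0.285 in replicate 2.

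**Figure D4:**
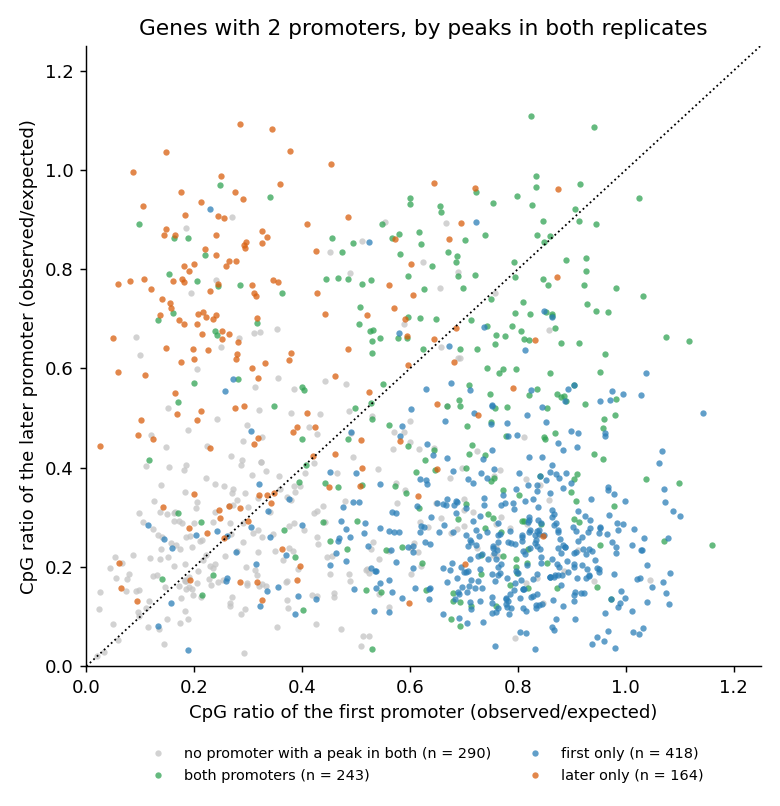
CpG ratio of the first (x axis) and later promoter (y axis) of the 1115 genes with 2 promoters, 1 point per gene, coloured by which promoters had a SOX3 peak in both replicates. The dotted line marks equal ratios. The 418 first-only genes lie mostly at the lower right and the 164 later-only genes mostly at the upper left, with 243 genes with a peak at both toward the upper right.

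The strongest examples of each kind were taken by the rank of the peak's q score, the authors' log-scaled adjusted p-value, higher for a stronger peak, among genes with no start of another gene within 5 kb. There were 240 such genes with a peak at the first promoter only in both replicates and 93 with later promoters only. The first promoter of Kansl1l, a relative of a subunit of the NSL histone acetyltransferase complex, had q scores of 762 and 256 in replicates 1 and 2 and a CpG ratio of 0.905. Its later promoter, 8.80 kb downstream, had a ratio of 0.0946 and no peak. Phf21a, a subunit of the LSD1-CoREST histone demethylase complex, had 534 and 194 at a first promoter with a ratio of only 0.370. Lcor, a ligand-dependent nuclear receptor corepressor, had 540 and 193. Srek1, a regulator of splicing, had 503 and 190. In both of these the CpG ratio of the first promoter was above 0.9, and it exceeded that of the later promoter. Csnk1g2, a casein kinase, had 467 and 205, and Mtf2, a Polycomb-like partner of the PRC2 complex, had 474 and 200. Of these 6 genes, Phf21a alone had a first promoter in the CpG-poor class.

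The 6 leading genes with later promoters only had q scores of the same order. Ywhaz, which encodes the adaptor protein 14-3-3 zeta, had 817 and 281 at a promoter 8.45 kb downstream of the first start site, with a CpG ratio of 0.620 against 0.200. Hnrnpf, which encodes an RNA-binding protein of the hnRNP family, had 717 and 298 at its second promoter and 352 and 143 at the third, and no peak at its first, with ratios of 0.778, 0.854 and 0.244. Hif1a, the oxygen-regulated subunit of the hypoxia-inducible factor, had 629 and 230 at the later promoter. Here too the promoter with the peak had the higher ratio, 0.855 against 0.296. Nfyc, a subunit of the CCAAT-binding factor NF-Y, had 605 and 217 at its second promoter (ratio 1.02) and a weak peak of 45.7 in replicate 1 alone at the third. Rbbp8, which encodes the DNA end-resection factor CtIP, had 504 and 281. Slc39a10, a zinc transporter, had 632 and 207 at a promoter 72.2 kb downstream with a ratio of 1.04. In all 6 genes the first promoter was CpG-poor. That it had no peak in either replicate follows from how the genes were chosen.

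**Figure D5:**
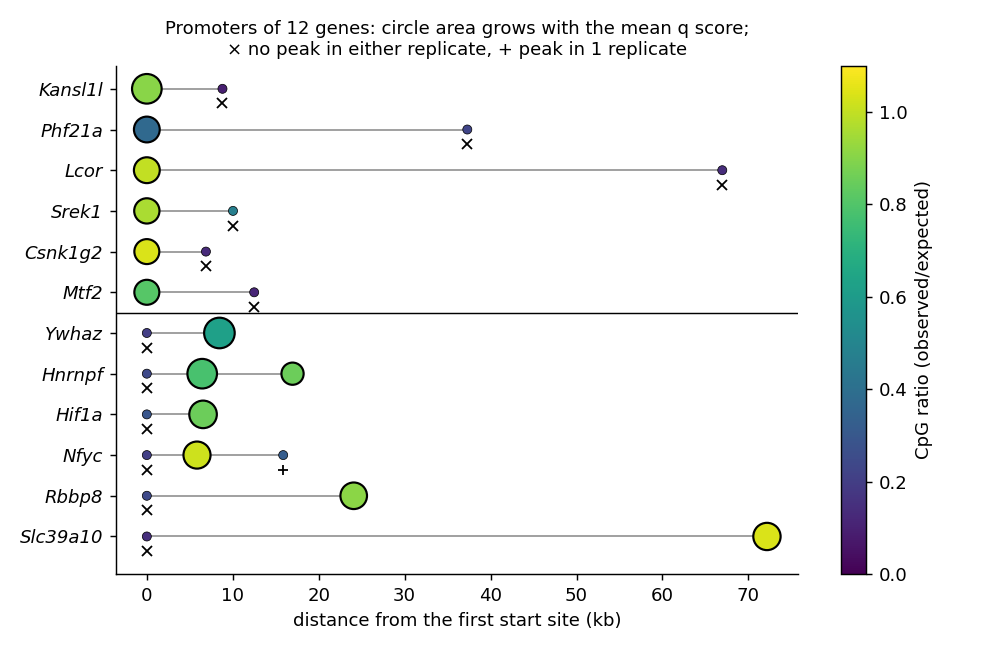
Promoters of the 12 genes chosen by rank, 1 row per gene, placed by distance from the first start site in kb (x axis). The area of a large circle grows with the mean q score of the 2 replicates, small circles are promoters without a peak in both replicates (a cross marks no peak in either, a plus a peak in 1), and colour is the CpG ratio. In the upper 6 rows the peak is at the first promoter and in the lower 6 at later ones.

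The 4 genes with the widest gap in CpG ratio in each direction were chosen without the peaks and followed the same pattern. Prkd3 (protein kinase D3), Hipk2 (a nuclear kinase), Ccl25 (a chemokine) and Zranb1 (a deubiquitinase) had a first promoter with a ratio between 1.01 and 1.08 and a later one between 0.0652 and 0.126. Each had a peak at the first promoter only in both replicates, with q scores of 450 and 179 in Prkd3, 396 and 137 in Hipk2, 366 and 130 in Ccl25 and 447 and 135 in Zranb1. In the other direction, Evi5 (a regulator of cell division), Slc39a10 and Cdyl (a chromodomain protein) had a peak at the later promoter only in both replicates. Evi5 had 401 and 167 there, and Cdyl 332 and 184. Adipor2, an adiponectin receptor, had 441 and 146 at its later promoter and a weak peak of 41.4 at the first in replicate 1 only. The start of Ccl25 lay within 5 kb of a start of another gene, so its peak cannot be given to Ccl25 alone.

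Of the genes with most promoters, the 3 with 6 and, first by symbol, 1 of the 5 with 5 showed mixed occupancy. Abr, a regulator of small GTPases, has 6 promoters. Its second promoter had q scores of 117 and 104, the fourth 258 and 45.6, the fifth 44.8 and 33.9 and its last 48.5 and 37.6, whereas the first and the third had a peak in replicate 2 only (33.6 and 32.1). Sox6, a SOX factor of another group, also has 6. It had peaks at the first (66.3 and 70.7) and second (124 and 61.1, with another gene's start within 5 kb) in both replicates, at the fourth in replicate 2 only (39.2) and none at the others. Snrpn, an imprinted gene with far upstream start sites, had 5 CpG-poor promoters without a peak in either replicate. Its last promoter, with a ratio of 0.590 and another gene's start within 5 kb, had a weak peak of 32.6 in replicate 1 only. Ablim1, an actin-binding protein, has 5 promoters, of which 4 had a peak in replicate 1 (q scores of 31.4 to 61.9) and none in replicate 2. Another gene starts within 5 kb of its second promoter.

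The gene lists show how this looks in genes known for their alternative promoters. Of 8 genes of DNA methylation and demethylation, 4 had 2 or more promoters. Dnmt3a, a de novo methyltransferase whose later promoter gives the shorter form Dnmt3a2 of germ cells, had 264 and 113 at the first and 80.3 and 51.3 at the later promoter. Tet3, a 5-methylcytosine dioxygenase, also had a peak at both, with 425 and 150 at the first and 224 and 90.9 at the later one, where another gene starts within 5 kb. Dnmt1, the maintenance methyltransferase, had 241 and 124 at its later promoter and 31.4 at the first in replicate 1 only. Dnmt3l, a cofactor of de novo methylation in germ cells, is a different case, since its 3 promoters were all CpG-poor. Only the third had a weak peak in each replicate (35.7 and 37.7). These peaks did not overlap, and with a window of 1 kb 0 promoters had a peak in both.

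Of 24 transcription factors known for alternative promoters, 19 were members. In replicate 1, 6 had a peak at the first promoter only, 4 at later promoters only, 3 at all, 3 at the first and some later and 3 at none, and in replicate 2 these numbers were 4, 5, 3, 2 and 5. Over all 1370 multi-promoter genes these classes held 30.9%, 13.3%, 35.3%, 6.13% and 14.4% in replicate 1 and 34.5%, 16.4%, 21.7%, 4.82% and 22.6% in replicate 2, and nothing is read from lists this short. The Runx genes share an upstream (distal) and a downstream (proximal) promoter, and in all 3 the proximal one alone had a peak in both replicates. It had 66.4 and 34.5 in Runx1, 52.6 and 41.0 in Runx2 and 71.0 and 42.4 in Runx3, scores under those of the 12 genes chosen by rank. At Runx3 the strongest peaks of the replicates did not overlap, and with a window of 1 kb it had no promoter with a peak in both. The proximal promoters were CpG-rich (0.865, 0.910 and 0.972) and the distal ones CpG-poor. Distal peaks were found in 1 replicate each in Runx1 (31.4 in replicate 1) and Runx3 (31.9 in replicate 2) and in none in Runx2. Lmo2, a partner of blood transcription factors, also had a peak at the later promoter only (67.3 and 58.2), as did Nfia, a nuclear factor I gene (212 and 53.1). Tcf12, an E protein, had it at the first only (400 and 169). Bcl6, a transcriptional repressor, and Ldb1, an adaptor of LIM-domain factors, had peaks at both promoters in both replicates. Trp63 and Trp73, relatives of the p53 gene, had no peak at either promoter in either replicate. Pax6, an eye and brain factor, had 34.6 at its first promoter, where another gene starts within 5 kb, in replicate 1 only. Its second promoter had 41.9 in replicate 2 only, so no promoter of Pax6 had a peak in both.

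Among nuclear receptors and their coactivators, 16 of 27 genes were members. Replicate 1 gave 4 with the first promoter only, 6 with later promoters only, 4 with all and 2 with none, and replicate 2 gave 3, 3, 3 and 6, with 1 at the first and some later. The shares over all multi-promoter genes in these 4 classes were 30.9%, 13.3%, 35.3% and 14.4% in replicate 1 and 34.5%, 16.4%, 21.7% and 22.6% in replicate 2. Retinoic acid drives spermatogonial differentiation, and its receptor genes differed. Rara had peaks at both promoters (243 and 145 at the first, 188 and 88.2 at the later), and so did Rarg (98.1 and 41.9, 149 and 77.7). Rarb had a peak at its later, CpG-rich promoter only (69.8 and 75.4), 507 kb downstream of the first start site. Rxra, the shared partner of these receptors, had 362 and 118 at the first promoter and 35.7 at the later one in replicate 1 only. Nr3c1, the glucocorticoid receptor gene, had a peak at the later promoter only (267 and 129), and Pparg, a receptor of fat cells, at the first only (40.3 and 45.3, separate peaks). Hnf4a, a liver receptor gene with 2 CpG-poor promoters, had no peak in either replicate.

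Of 19 imprinted genes, which are expressed from the maternal or the paternal copy only, 5 were members. All promoters had a peak in 4 of them in replicate 1 and in 3 in replicate 2, against 35.3% and 21.7% of all multi-promoter genes, and 5 genes are too few to set this apart. Gnas, a complex locus with promoters for several proteins, had 35.7 and 56.8 at its first, 151 and 56.1 at its second and 469 and 172 at the third promoter, the last being that of the stimulatory G protein subunit. At the first and the second the peaks of the replicates did not overlap, and with a window of 1 kb or by the peak midpoint 1 of its promoters had a peak in both. Another gene starts within 5 kb of the second and of the last. Grb10, a growth inhibitor, had 88.4 and 91.6 at a first promoter with a ratio of 1.07 and 127 and 69.8 at a later one with a ratio of 0.252. Inpp5f, a phosphatase gene, had 273 and 88.6 at the first and 99.6 and 58.4 at the later promoter. Igf2, a growth factor gene, had 74.2 and 31.9 at its later promoter, where another gene starts within 5 kb and the strongest peaks did not overlap, and 48.5 at the first in replicate 1 only, with both CpG-poor.

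None of the 36 genes listed for spermatogonia and their niche had 2 promoters under the rule, so the list gives no value. Of 5 genes known for a promoter used in meiotic or haploid germ cells, 3 were members. Ace, the angiotensin-converting enzyme gene, makes the somatic enzyme from its first promoter and the testis enzyme from an internal one. It had 98.1 and 35.5 at the first and no peak at the later, CpG-poor promoter (ratio 0.157). Crem, a regulator of genes of haploid germ cells, had 514 and 156 at its first promoter, where another gene starts within 5 kb, and 36.4 at the fourth in replicate 1 only. Hk1, a hexokinase gene, had 141 and 99.0 at its later promoter, also with another start within 5 kb, and 31.4 at the first in replicate 1 only. Of 20 testis somatic genes, 2 were members. Cyp11a1, the enzyme that starts steroid synthesis, had 65.1 and 46.5 at the first promoter and 43.0 at the later one in replicate 1 only, and Cyp19a1 (aromatase) had no peak at any of its 4 CpG-poor promoters.

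Long genes of neurons and muscle had 12 members of 20 genes. In replicate 1, 3 had the first promoter only, 5 later promoters only, 3 the first and some later, 1 none and 0 all, and in replicate 2 these numbers were 1, 5, 3, 3 and 0. The shares of all multi-promoter genes in the same order were 30.9%, 13.3%, 6.13%, 14.4% and 35.3% in replicate 1 and 34.5%, 16.4%, 4.82%, 22.6% and 21.7% in replicate 2. Cacna1c, a calcium channel gene, had 108 and 55.9 at its second promoter, the only CpG-rich one of its 3 (ratio 1.03). Nrxn3, which encodes a synaptic adhesion protein, had a weak peak at 1 later promoter (51.0 and 45.1). Dmd, the dystrophin gene on the X chromosome, had a peak of 113 in replicate 1 only, at a promoter 2099 kb from the first. Dst, a cytoskeletal linker gene, had the highest scores of the members of this list named here, with 116 and 34.7 at its first (another gene starts within 5 kb) and 211 and 59.4 at its second promoter. Of 18 cell cycle and tumour suppressor genes, 2 were members. Cdkn2a encodes p19Arf from its first promoter and p16Ink4a from the later one. It had 134 and 71.3 at the first, where another gene starts within 5 kb, and no peak at the later promoter in either replicate. Ccnd3, cyclin D3, had peaks at both (205 and 63.8, 209 and 96.2), the first with another start within 5 kb.

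Where a gene had a peak at both of its 2 promoters, the peak at the promoter with the higher CpG ratio usually scored higher. This held for 336 of 433 genes in replicate 1 (77.6%) and 210 of 277 in replicate 2 (75.8%), and genes whose promoters shared a peak were left out. The first promoter scored higher in 63.7% and 62.8%. Over all first promoters with a peak the median q score was 145 in replicate 1 and 73.1 in replicate 2, and over later ones 72.6 and 52.9. Within the CpG-rich class these medians were 239 and 97.6 for first and 233 and 93.0 for later promoters, and within the poor class 48.5 and 42.8 for first and 45.5 and 40.3 for later ones. Peak strength thus followed the class and differed little by order. Scores of the replicates are not on a common scale, so they are compared within a replicate only. The log2 ratio of ChIP over input told the same in replicate 1, with medians of 4.01 (rich) and 2.90 (poor) for first promoters. In replicate 2 it was 2.78 and 2.66, which leaves little difference in enrichment between the classes there.

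The shares varied over a narrower range with distance between the promoters than with CpG class. Of 2-promoter genes with promoters 5 to 10 kb apart, 46.1% had a peak at both in replicate 1 and 28.4% in replicate 2. Over 100 kb apart, the shares were 25.9% and 11.9%. Between these ends the shares did not follow a steady course, with 42.0% and 31.3% for promoters 50 to 100 kb apart. The median CpG ratio of the first promoter also varied over these groups, with 0.527 at 5 to 10 kb and 0.743 at 50 to 100 kb. Its part in the course over distance was not tested. Up to 4 promoters, the share of genes with a peak at every promoter dropped with their number, from 39.2% and 24.9% of genes with 2 promoters to 21.3% and 8.63% with 3 and to 4 and 1 of the 50 genes with 4, and the share of promoters with a peak from 62.2% and 51.0% to 53.3% and 40.3% and to 47.5% and 37.5%. The 8 genes with 5 or 6 promoters broke this course, with a peak at all promoters in 0 and 1 of them and at 55.8% and 37.2% of their promoters. The falls up to 4 promoters are set in part by the counting. A peak at every promoter becomes rarer with more promoters even at a constant rate per promoter. First promoters, which had a peak more often, also make up a smaller part of the promoters of such genes. Whether promoter number matters beyond this was not tested.

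Promoters with more annotated transcripts had peaks more often at both positions. These groups were not matched for CpG class or for the number of start sites, which widens the span searched. Later promoters with 1 transcript had a peak at 44.7% and 31.9%, and those with 4 or more at 68.5% and 58.2%. First promoters went from 66.3% and 53.1% to 83.6% and 73.7%. On the X chromosome, 44.4% and 35.6% of 45 first promoters and 33.3% and 15.0% of 60 later ones had a peak, under the autosomal 73.3% and 61.9% (first) and 49.5% and 38.0% (later). The X chromosome shares lay below the autosomal ones at both positions and in both replicates, with few promoters behind them. The groups were not matched for CpG class or for the single X copy of male cells. The part of either was not tested.

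Neighbouring genes touch the comparison, because a shared peak cannot be given to either gene. Another gene started within 2 kb of 16.8% of first promoters and 4.19% of later ones. First promoters with such a neighbour had a peak at 87.4% and 82.2%, and those without at 69.3% and 56.8%. Later promoters without a neighbour stood at 47.4% and 35.7%, so the gap between first and later promoters remained among promoters with no neighbour. At the limit of the rule, 93 pairs of neighbouring promoters lay 5 to 6 kb apart, and 45 of them had a peak at both in replicate 1 and 30 in replicate 2. Just outside it, 124 pairs of neighbouring start sites 4 to 5 kb apart were merged, with 45 and 31 at both. Neighbouring promoters of a gene shared a peak in only 4 pairs in replicate 1 and 1 pair in replicate 2, of 1694 pairs.

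Short motifs near the start site differed in frequency between first and later promoters and between promoters with and without peaks. They were searched as exact matches on both strands from 250 bases before to 50 bases after the main start site. A peak counted anywhere within 2 kb of a start site, so it need not lie in the searched window. The peaks themselves were not searched, and the shares do not give their motif content. The GC box GGGCGG, the site of SP1-like factors, was in 53.4% of first and 29.3% of later promoters, against 47.0% of all protein-coding promoters. Of later promoters it was in 55.1% of those with a peak in both replicates and 10.1% of those with a peak in neither. AACAAT, the core that SOX factors bind, went the other way, with 5.84% of first and 10.4% of later promoters beside 9.18% of all. Of later promoters it was in 5.42% of those with a peak in both and 14.4% of those with a peak in neither. TATAAA, the TATA box, was in 7.74% of first and 11.98% of later promoters, beside 12.8% of all. These letters are AT-rich or GC-rich themselves and the shares are descriptions of the windows. Among CpG-poor members alone, AACAAT was in 4.68% of 299 promoters with a peak in both replicates and in 13.5% of 1035 with a peak in neither, and GGGCGG in 32.1% and 8.99%.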

How the data were processed

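The 2 SOX3 ChIP-seq peak lists of P7 testis were used as deposited, 1 per replicate. According to the study's methods the authors aligned the reads to mm10 with Novoalign, assigned reads that fit several places at random, removed duplicates with Picard, called peaks with USeq and kept those with a q score above 30. The deposited lists have no header, so the meaning of the columns was inferred from the caller's layout: a p score and a q score (log-scaled p-value and adjusted p-value, higher for a stronger peak) and a log2 ratio of ChIP over input, normalised by the authors. The deposited ChIP-nexus lists, in the format of MACS2 2.1.1, give a score, a fold enrichment at the summit (a ratio), −log10 p and −log10 q by the authors. No read numbers are in the lists. The study's supplement gives read totals, which were not used here. The methods describe removing blacklisted regions and keeping peaks shared between replicates, and whether the deposited lists of single replicates come before or after these steps is not stated.

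Start sites were those of the 45756 RefSeq curated transcripts (NM and NR) on chromosomes 1 to 19, X and Y of GRCm38.p6, of which 39650 belong to the 21000 protein-coding genes. Start sites within 5 kb were merged, a peak within 2 kb of any start site of a promoter counted, and the CpG ratio was taken over 500 bases on either side of the start site with most transcripts. Replicate values are given as mean ± SD. No test was run on the 2 replicates, and intervals are exact binomial (Clopper-Pearson) at 95%. Named genes were the members of 9 lists, the 6 genes with a first promoter only and the 6 with later promoters only whose peaks ranked highest by q score over both replicates (no start of another gene within 5 kb), the 4 with most promoters (ties by symbol) and the 4 in each direction with the widest CpG difference. The members and lists were chosen with earlier results of these data known. Sequences were planned to run 50 bases past the start site, and only the 250 bases before it are printed, to keep transcribed bases out. Alternatives changed the score threshold, the window, the merging, the annotation, the CpG measure and the replicates. The code used Python 3.11.15. Peak overlaps were compared with those of bedtools 2.31.1, and the code was tested on simulated data. The 15 samples of the labels without a file here were not analysed.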

Additional observations from a re-analysis of the deposited data

How the results depend on the processing

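Of the 7 values below, those that are differences kept their sign under the alternatives run. The others are shares of genes, which cannot be negative, so their sign says nothing about how steady they are. The share of genes with the first promoter only (32.7%) moved beyond the replicate SD to 35.8% when a peak in both replicates was required, to 30.2% when only start sites within 2 kb were merged and to 27.3% with a window of 5 kb. Genes with later promoters only (14.8%) stayed within it. Genes with a peak at all promoters (28.5%) moved to 18.7% with a peak in both replicates, to 10.8% with a q score above 60 and to 38.2% with a 5 kb window. The CpG-rich minus CpG-poor difference (65.8 percentage points) moved to 56.9 with the ratio cut at 0.6, to 73.1 with a peak in both replicates, to 72.5 with a q score above 60 and to 56.0 with a 5 kb window. The next 3 values, and overlapping peaks as a condition, were chosen after seeing the data. The later minus first difference (-23.6 percentage points) moved to -23.0 without genes that have another start within 5 kb, -25.8 with a peak in both replicates, -24.2 with a q score above 60 or with replicate 1 cut to the number of peaks of replicate 2, -26.3 with start sites within 10 kb merged, -21.6 within 2 kb, -25.1 with a 1 kb window and -19.8 with a 5 kb window. The share of single peaks at the promoter with the higher CpG ratio (91.7%) moved to 89.0% with the ratio over 250 bases before to 50 after, to 93.8% with a q score above 60 and to 89.4% with a 5 kb window. The later minus first difference at equal CpG classes (-2.98 percentage points, whose replicates nearly coincide) moved to -4.39 with the ratio cut at 0.6, -5.50 with the ratio over 250 bases before to 50 after, -3.21 with NM transcripts only, -2.62 without genes that have another start within 5 kb, -3.45 with a peak in both replicates, -2.58 with replicate 1 cut to the number of peaks of replicate 2, -3.89 with start sites within 10 kb merged, -3.24 within 2 kb, -3.33 with a 1 kb window and -2.13 with a 5 kb window. Where the peaks of both replicates had to overlap, the values were 36.6% (first only), 15.0% (later only), 16.6% (all), 74.8 points (rich minus poor), -27.1 points (later minus first), 93.7% (higher CpG ratio) and -4.45 points (equal CpG classes). The cause of these moves was not tested. Leaving out a replicate gave 30.9 to 34.5% (first only), 13.3 to 16.4% (later only), 21.7 to 35.3% (all), 62.6 to 68.9 points (rich minus poor), -23.8 to -23.4 points (later minus first), 90.7 to 92.8% (higher CpG ratio) and -3.09 to -2.87 points (equal CpG classes). Under a q score above 60, the number of promoters with a peak in both replicates was the same for 45 of the 67 genes checked by name, and without replicate 2 for 50. No paired analysis was possible because the results come from no test, and differences were taken within each replicate. Every statement that a promoter had no peak is limited by the depth of the libraries and by the authors' threshold. Replicate 2 had more reads and the shorter list, and the cause of this was not tested.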

Other observations

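ChIP-nexus, a variant of ChIP with exonuclease trimming, placed few peaks at these promoters. Of the 3064 promoters of multi-promoter genes, 2 had a ChIP-nexus peak within 2 kb in replicate 1 (0.0653%, with an exact 95% interval from 0.00791 to 0.236%), beside 38 of all 22694 protein-coding promoters (0.167%). Replicate 2 had 0 of both. A count of 0 among the 3064 allows a share of up to 0.0979% by 3 counts and of 0.120% by the exact upper limit. These limits cover counting over promoters in the deposited lists and do not bound SOX3 occupancy. The supplement lists far fewer unique reads for both SOX3 ChIP-nexus libraries than for the SOX3 ChIP-seq ones. The lists themselves are short, with 110 and 18 peaks on the mouse chromosomes. Both promoters were the second of 2 and also had ChIP-seq peaks in both replicates. They belong to Tex14, a gene of the bridges between germ cells, with a fold enrichment of 16.3, and to the histone gene H2bc6, with 4.81.

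The annotated start sites also differed in the bases before them. The genome bases just before the main start site were AG, the letters that end nearly all introns, at 9.21% of later promoters (156 of 1694), 5.77% of first promoters (79 of 1370) and 4.83% of single-promoter genes. The later promoters that follow AG had a SOX3 peak at 26.9% in replicate 1 and 18.6% in replicate 2, and the others at 51.2% and 39.1%. Among CpG-poor later promoters the values were 18.2% and 10.6% after AG and 35.8% and 23.5% otherwise. All later promoters together stood at 48.9% and 37.2%. Whether the transcript models at such sites are complete was not tested. The share of AG expected from base composition was not measured, so these shares have no chance level beside them. The printed window before the later start site of Phf21a ends in AG.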
